A study of Canis lupus familiaris with 20 samples.

Results

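The genes described here are those of a short stretch of dog chromosome 32 whose position fits the bone matrix phosphoprotein cluster, in RNA sequencing of growing vertebral cartilage from dogs with and without mucopolysaccharidosis VII (MPS VII). In this inherited disease lysosomes cannot fully degrade glycosaminoglycans, the sugar chains of cartilage matrix. The members are all rows of the gene count table on chromosome 32 (CanFam3.1) whose lowest start lies from 11 to 11.4 Mb, which gave 5 of 24580 rows. Of these, 4 held at least 10 counts over all libraries and are reported, and the fifth, of 106 bases from 11017944 to 11018049, held 0 counts in all 20 libraries. All 4 passed the filter on low counts, so none was kept or lost by it.

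The dogs came from a naturally occurring canine line with a missense change in GUSB, which encodes the lysosomal enzyme beta-glucuronidase. Affected animals were homozygous for the change, and the controls were litter-matched heterozygotes, so that every animal carried at least 1 changed copy. Each animal gave 1 library, made from cartilaginous epiphysis pooled over both ends of the T12 vertebra. Of each genotype, 5 animals were taken on postnatal day 9 and 5 on day 14. The line carries its change in every tissue, and the labels give neither the sex of the animals nor which of them were litter mates. The series title names failed endochondral ossification as its subject.

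Endochondral ossification is the replacement of a cartilage template by bone: chondrocytes enlarge, their matrix mineralises, and vessels, osteoclasts and osteoblasts move in. The small integrin-binding ligand N-linked glycoproteins (SIBLINGs) are secreted, acidic, phosphorylated proteins of mineralised matrix. Their genes sit side by side in mammals. SPP1 encodes osteopontin, which many cell types make, among them hypertrophic chondrocytes, osteoblasts, osteoclasts and macrophages. IBSP encodes bone sialoprotein, a protein of newly mineralising matrix made by osteoblasts and late hypertrophic chondrocytes. DMP1 encodes dentin matrix protein, a product of osteocytes and late osteoblasts in bone. PKD2, the next gene after SPP1, belongs to another family and encodes polycystin-2, a cation channel of the primary cilium and the endoplasmic reticulum.

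The table gives Ensembl identifiers without gene names, and 0 of its identifiers matched the RefSeq symbol table used here, which belongs to another dog assembly (UU_Cfam_GSD_1.0). In that assembly the protein-coding genes from SPARCL1 to PKD2 are, in order, SPARCL1, DSPP, DMP1, IBSP, MEPE, SPP1 and PKD2. Each reported row was set beside the RefSeq gene nearest to it once both maps were aligned on the row and gene of most similar size. The row from 11354096 to 11362391 (ENSCAFG00000009569, 7 exons) spans 8296 bases, against 8250 for SPP1 in RefSeq. The row from 11383377 to 11437668 (ENSCAFG00000009595, 15 exons) spans 54292 bases, against 54282 for PKD2, and the gap between both rows is 20985 bases, against 20880 in RefSeq. A gap of 153745 bases separates the SPP1-sized row from the row below it, from 11189932 to 11200350 (ENSCAFG00000009558, 6 exons, 954 exon bases), where RefSeq has 151660 bases between SPP1 and IBSP. That row spans 10419 bases, against 13670 for IBSP in RefSeq, so a part of that gene may lie outside it. The lowest reported row, from 11051535 to 11052842, lies 137089 bases further down, where RefSeq has 135426 bases between IBSP and DMP1. It is a single exon of 1308 bases, while RefSeq gives DMP1 a span of 13253, so at most a part of that gene could be counted. These rows are called the SPP1-, PKD2-, IBSP- and DMP1-position genes, names given by place and not by identifier. No member row lay where RefSeq has MEPE, between IBSP and SPP1, and none of gene size lay where it has DSPP, so the levels of those genes were not analysed here.

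All 4 rows are on the plus strand, and 0 other rows of the table overlap them. RefSeq lists a long non-coding RNA that overlaps both SPP1 and PKD2 and has no row of its own here. Any of its reads that were counted in those rows could not be told apart from theirs. The counted exons need not hold the whole transcript, as for the DMP1-position gene, so levels per kb compare between rows only roughly.

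Libraries held 21419930 to 28028365 counts at day 9 and 15772761 to 22471728 at day 14, so age and depth went together. Levels are in CPM, read counts scaled to the size of each library, and comparisons are from a single edgeR quasi-likelihood fit over all 20 libraries, called at a Benjamini-Hochberg adjusted p under 0.05 over 14550 tested genes. Replicate 3 of the affected day 9 libraries stood apart on principal components of all genes: on the third its value was 85.0, while its 4 group mates lay at -17.8 to -4.70. Fold changes that rest on it are given with and without it. Correlations between genes were computed over all 20 libraries only. Chondrocyte, osteoblast and osteoclast markers were not looked up, because the rows lack gene names and only the members were named by position. The tissue label was therefore not checked against them. The tissue was measured in bulk, and fewer cells of a type cannot be told apart from less RNA per cell.

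In control cartilage the DMP1-, IBSP- and SPP1-position genes, the 3 phosphoprotein-position genes, rose together between day 9 and day 14, by 7.99-fold to 26.6-fold. These were 3 of the 4 members, in a comparison that called 21.8% of all tested genes higher. In affected cartilage 0 of the 4 members passed the edgeR test for a change with age, where 22.7% of all tested genes did; 1 of the 4 had an unadjusted p under 0.05, and DESeq2 called 1, the DMP1-position gene in both cases. At day 14 the 3 genes stood 4.76-fold to 41.8-fold lower in affected than in control dogs, where 10.7% of all tested genes were called lower. At day 9 the IBSP-position gene was already 3.1-fold lower in affected dogs, 1 of 4 members called lower beside 2.21% of all tested genes, while the SPP1-position gene did not pass the test. Their neighbour, the PKD2-position gene, was called higher in affected dogs at both ages, as were 6.18% of all tested genes at day 9 and 11.3% at day 14.

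**Figure D1:**
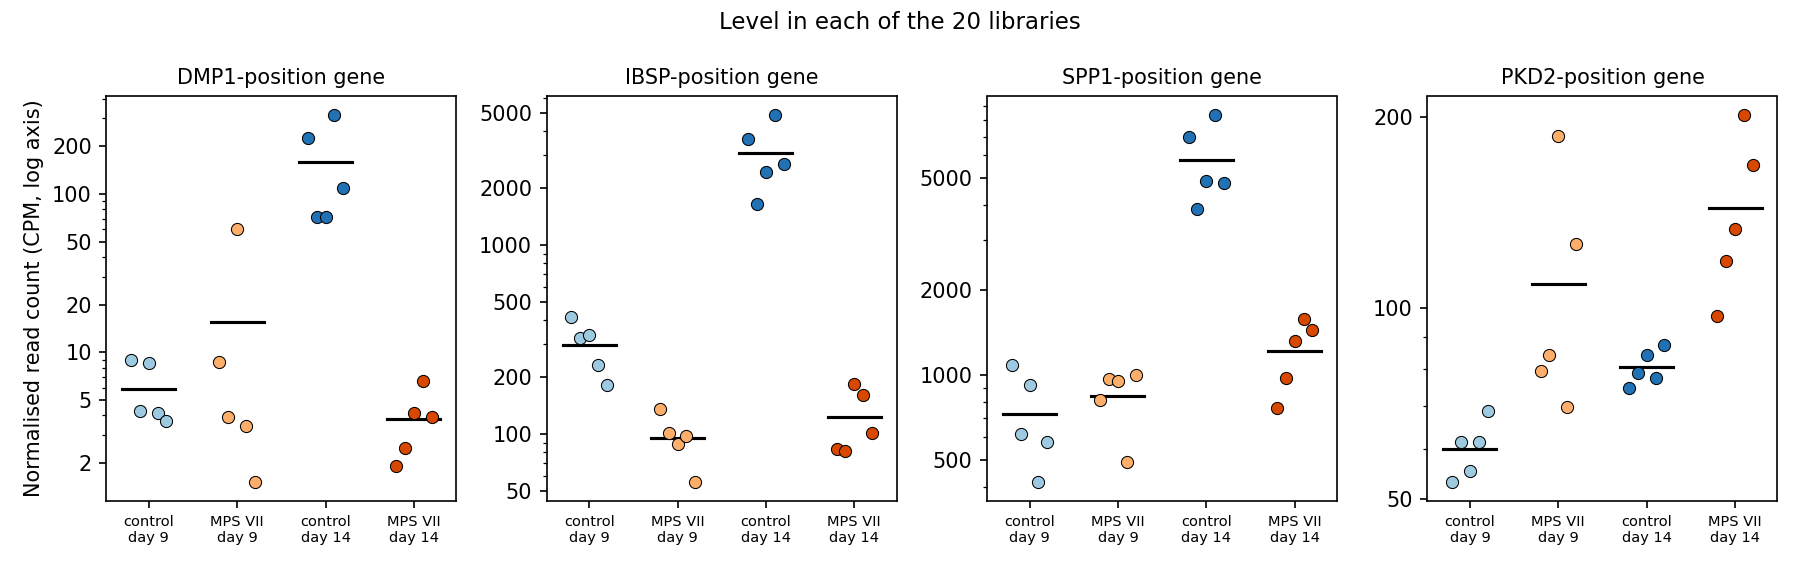
Normalised read count (CPM, log axis, a separate scale per panel) of the DMP1-, IBSP-, SPP1- and PKD2-position genes in 20 libraries; each point is a library, drawn from replicate 1 on the left to replicate 5 on the right, and each bar is the mean of 5. In the 3 phosphoprotein panels the control day 14 libraries lie above all others, and 1 affected day 9 library lies far above its group for the DMP1-position gene, at 59.98 CPM.

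The SPP1-position gene was the most abundant member in every group, in CPM and per kb of exon. Replicates 1 to 5 of the control day 9 group stood at 1083, 618, 918, 416 and 579 CPM. The affected day 9 replicates stood at 816, 964, 948, 488 and 1001 CPM. These ranges overlapped over most of their length, and the means were 723 ± 271 CPM and 844 ± 211 CPM (SD, n = 5 each). The log2 fold change of 0.22 ± 0.27 (SE) did not pass the test (edgeR adjusted p = 0.660), and its 95% interval ran from -0.34 to 0.78.

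By day 14 the control replicates held 6976, 3873, 4880, 8354 and 4796 CPM of the SPP1-position gene. The affected replicates of that age held 762, 977, 1318, 1579 and 1438 CPM. Every control library was above every affected one, with means of 5776 ± 1835 CPM and 1215 ± 337 CPM (SD, n = 5 each) and a log2 fold change of -2.25 ± 0.28 (SE, edgeR adjusted p = 5.42e-06). From day 9 the level had risen by 3.0 ± 0.29 on the log2 scale in controls (edgeR adjusted p = 9.62e-08). In affected dogs the same step was 0.53 ± 0.27 with a 95% interval of -0.03 to 1.09, which did not pass the test (edgeR adjusted p = 0.160). Per kb of exon, the SPP1-position gene ranked 9 of the 14550 tested genes in control day 14 cartilage, and 66 in affected cartilage of that age.

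The IBSP-position gene, at the place of the mineralisation-linked bone sialoprotein gene, separated the genotypes at both ages. Control day 9 replicates held 417, 322, 334, 232 and 181 CPM. Their affected counterparts held 135, 102, 88.5, 97.7 and 55.7 CPM. The lowest control library was above the highest affected one, and the means were 297 ± 92.1 CPM and 95.8 ± 28.5 CPM (SD, n = 5 each). The log2 fold change was -1.63 ± 0.31 (SE, edgeR adjusted p = 0.00137), and it was -1.61 without replicate 3 of the affected day 9 group (edgeR adjusted p = 0.00796).

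At day 14 the IBSP-position gene stood at 3655, 1649, 2429, 4875 and 2667 CPM in the control replicates. The affected replicates were at 83.3, 81.2, 184, 161 and 102 CPM. No affected library of either age reached the lowest control library of day 14, and means of 3055 ± 1244 CPM and 122 ± 47.4 CPM (SD, n = 5 each) gave a log2 fold change of -4.64 ± 0.35 (SE, edgeR adjusted p = 1.17e-08). With age the gene rose by 3.36 ± 0.33 on the log2 scale in controls (edgeR adjusted p = 1.29e-07). In affected dogs the estimate was 0.35 ± 0.30 with a 95% interval of -0.27 to 0.98 (edgeR adjusted p = 0.407), and the libraries of both ages overlapped. Its rank per kb of exon among the tested genes was 14 in control cartilage at day 14 and 353 in affected cartilage.

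The DMP1-position gene was the least abundant of the phosphoprotein-position genes in every group, per kb of exon. In control day 9 cartilage it held 8.89, 4.27, 8.54, 4.17 and 3.67 CPM, which rest on 72 to 255 counts per library. Affected day 9 replicates 1, 2, 4 and 5 held 8.67, 3.88, 3.43 and 1.52 CPM, and replicate 3 held 59.98 CPM, from 1518 counts. Apart from that library the affected values overlapped the control values. The log2 fold change of 1.39 ± 0.75 (SE) did not pass the test (edgeR adjusted p = 0.282), and without replicate 3 it turned to -0.44 (edgeR adjusted p = 0.772). In the same library the IBSP-position gene stood within the range of its group, at 88.5 CPM, and so did the SPP1-position gene, at 948 CPM, while the PKD2-position gene was at its highest for the group, 187 CPM.

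At day 14 the control replicates held 226, 71.6, 71.1, 316 and 109 CPM of the DMP1-position gene. The affected replicates held 1.93, 2.48, 4.13, 6.62 and 3.93 CPM. All control libraries were above all affected ones, with means of 159 ± 108.4 CPM and 3.82 ± 1.83 CPM (SD, n = 5 each) and a log2 fold change of -5.39 ± 0.86 (SE, edgeR adjusted p = 1.45e-04). The rise with age in controls was 4.74 ± 0.82 on the log2 scale (edgeR adjusted p = 1.55e-04), the eighth largest change by size among all tested genes. In affected dogs the log2 difference between ages was -2.04 ± 0.78 (edgeR adjusted p = 0.0664). It was -0.19 without replicate 3 of the affected day 9 group (edgeR adjusted p = 0.843), and it passed the threshold with DESeq2 (adjusted p = 0.0368) and without affected day 9 replicate 2, 4 or 5 (edgeR adjusted p = 0.0312 to 0.0404).

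The PKD2-position gene moved otherwise. Control day 9 replicates held 53.2, 61.4, 55.3, 61.5 and 68.8 CPM, and affected day 9 replicates 79.5, 84.3, 187, 69.7 and 126 CPM. At day 14 the control libraries were at 74.9, 78.9, 84.3, 77.5 and 87.5 CPM and the affected ones at 97.2, 119, 133, 202 and 168 CPM. Controls varied little, and at each age the lowest affected library was above the highest control library, by under 1 CPM at day 9. The log2 fold change between genotypes was 0.86 ± 0.22 at day 9 (SE, edgeR adjusted p = 0.0147) and 0.83 ± 0.22 at day 14 (edgeR adjusted p = 0.00818). Without replicate 3 of the affected day 9 group the day 9 value was 0.58 (edgeR adjusted p = 0.0445), and in a fit of day 9 libraries alone the call was lost (edgeR adjusted p = 0.0641). The call at day 14 was lost when libraries were scaled by their totals alone (log2 fold change 0.70, edgeR adjusted p = 0.0713).

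With age the PKD2-position gene had log2 fold changes of 0.43 ± 0.22 in controls (edgeR adjusted p = 0.121) and 0.39 ± 0.22 in affected dogs (edgeR adjusted p = 0.190). Neither passed the test, although control libraries of both ages did not overlap. The control value passed in a fit of control libraries alone (0.45, edgeR adjusted p = 2.57e-04) and with scaling by totals alone (0.85, edgeR adjusted p = 0.0128). The affected value passed without replicate 3 of day 9 (0.70, edgeR adjusted p = 0.00531).

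Non-overlap of libraries was counted over all 4 members. Both genotypes did not overlap for 2 of 4 members at day 9, against 8.09% of tested genes, and for 4 of 4 at day 14, against 19.1%. Both ages did not overlap for 4 of 4 members in controls, against 38.4%, and overlapped for all 4 in affected dogs, where 11.5% of tested genes did not. The median log2 fold change over the 4 members was -3.45 between genotypes at day 14 and 3.18 between ages in controls, beside medians of 0.04 and -0.06 over all tested genes. Scaling by totals alone raised the median of all genes by 0.42 on the log2 scale for age in controls, and the share of called genes that were higher there went from 51.3% to 90.3%. For the other comparisons that share went from 73.7% to 85.3% (genotype, day 9), from 51.2% to 32.8% (genotype, day 14) and from 56.2% to 93.1% (age, affected dogs). The DMP1-, IBSP- and SPP1-position genes kept their direction and call under that scaling for age in controls and for genotype at day 14.

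**Figure D2:**
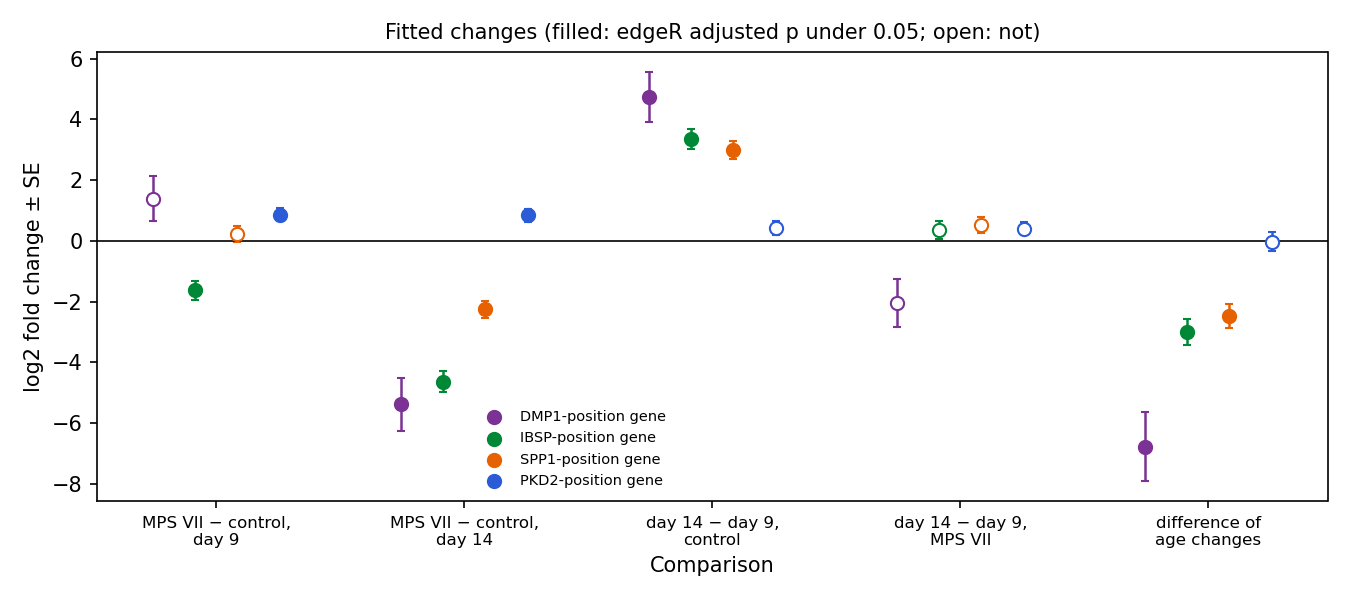
Log2 fold change (vertical axis, bars ± SE) of the 4 genes in 5 comparisons; filled points have an edgeR adjusted p under 0.05 and open points do not. The DMP1-, IBSP- and SPP1-position genes lie between 3.0 and 4.74 for the age comparison in controls, and between -5.39 and -2.25 for the genotype comparison of day 14.

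Whether the change with age differed by genotype was tested directly, as the change in affected dogs minus that in controls. It was -6.77 ± 1.12 on the log2 scale for the DMP1-position gene (SE, edgeR adjusted p = 0.00402), and -4.94 without replicate 3 of the affected day 9 group (edgeR adjusted p = 0.00405). For the IBSP-position gene it was -3.01 ± 0.43 (edgeR adjusted p = 0.00105). The SPP1-position gene gave -2.47 ± 0.39 (edgeR adjusted p = 0.00169). These 3 of 4 members were called lower, against 2.43% of all tested genes. The PKD2-position gene gave -0.03 ± 0.31 with a 95% interval of -0.67 to 0.61 (edgeR adjusted p = 0.977). The 5 comparisons share libraries, so these values restate the control and affected changes above and are not separate evidence.

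The members also differed in how their levels stood to each other. The ratio of the IBSP-position to the SPP1-position gene, both as counts per kb of exon, does not depend on how libraries are scaled. In control day 9 replicates it was 0.620, 0.840, 0.586, 0.899 and 0.505. Affected day 9 replicates gave 0.267, 0.170, 0.150, 0.322 and 0.0896. Every control library was above every affected one. Controls of day 14 lay from 0.686 to 0.940 and affected dogs of day 14 from 0.114 to 0.225, again without overlap. The mean ratio was 0.690 ± 0.170 and 0.834 ± 0.0976 in controls of both ages, and 0.200 ± 0.0935 and 0.163 ± 0.0427 in affected dogs (SD, n = 5 each). Between ages the ratios of 1 genotype overlapped. The ratio was computed after the levels were known and has no test.

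**Figure D3:**
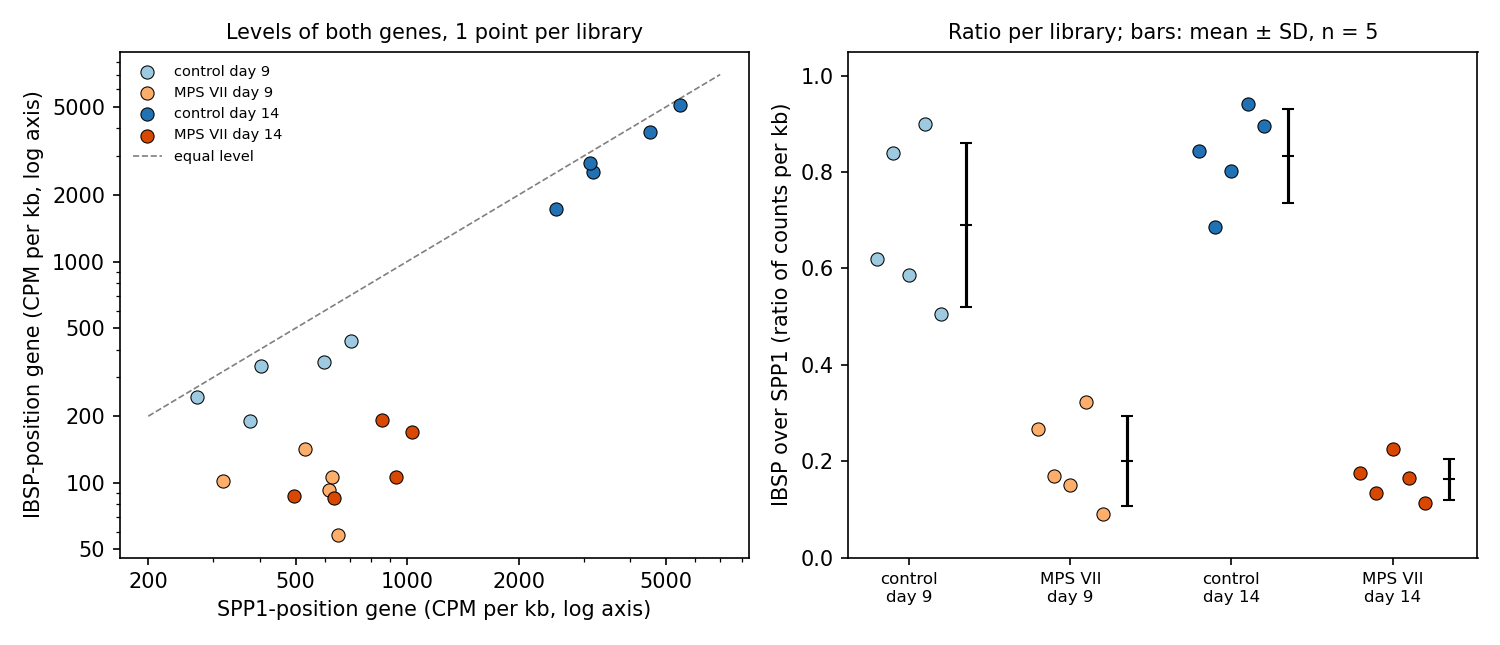
Left, level of the IBSP-position gene against that of the SPP1-position gene (CPM per kb of exon, log axes), a point per library, with a dashed line of equal levels. Right, their ratio per library, with mean ± SD (n = 5): affected libraries lie at 0.0896 to 0.322 and control libraries at 0.505 to 0.940.

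Of the summed counts per kb of the 3 phosphoprotein-position genes, the SPP1-position gene made up 59.3% ± 5.86 in control day 9 libraries and 53.8% ± 3.13 in control day 14 libraries (SD, n = 5 each). In affected libraries it made up 82.3% ± 6.39 at day 9 and 85.8% ± 3.13 at day 14. The share of the DMP1-position gene in controls lay at 0.439% to 0.685% at day 9 and at 0.941% to 2.24% at day 14, without overlap. In affected day 14 libraries its share was 0.252% to 0.421%, below every control library of either age. Its share in affected day 9 libraries overlapped that of controls, at 0.163% to 0.976% without replicate 3, which stood at 6.07%. Together the 3 genes took 1.07% ± 0.444 of all counts in control day 14 libraries, and 0.142% ± 0.0429 in affected day 14 libraries. At day 9 they took 0.0914% ± 0.0408 in control and 0.0926% ± 0.0303 in affected libraries.

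Within groups, the spread between animals was shared in part among the phosphoprotein-position genes in controls and in affected day 14 cartilage. Control day 14 replicates 4 and 1 were the highest and second highest for each of the 3 genes. The ratio of highest to lowest library in that group was 4.44 for the DMP1-position gene, 2.96 for the IBSP-position gene and 2.16 for the SPP1-position gene. Those same replicates had the lowest values of that group on the first principal component of all genes, -75.4 and -71.5 against -57.1 to -53.7, and were its 2 lowest for the PKD2-position gene. In control day 9 cartilage replicates 1, 3 and 2 were the 3 highest, in that order, for all 3 genes. In affected day 9 cartilage no such order was seen: replicate 5 was highest for the SPP1-position gene and lowest for the IBSP- and DMP1-position genes. In affected day 14 cartilage replicates 3, 4 and 5 were the 3 highest for all 4 members, the PKD2-position gene among them. With 5 libraries in a group these orders are a description only.

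The order of the 4 groups differed by gene. For the IBSP-position gene it was control day 14, control day 9, affected day 14 and affected day 9, and neighbours overlapped except control day 14 with control day 9. The SPP1-position gene ran control day 14, affected day 14, affected day 9 and control day 9, with overlap everywhere below the first. The DMP1-position gene ran control day 14, affected day 9, control day 9 and affected day 14, likewise with overlap below the first, and the place of affected day 9 rests on replicate 3. For the PKD2-position gene the order was affected day 14, affected day 9, control day 14 and control day 9, and of its neighbours the control groups alone did not overlap.

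Rows around the window were examined for how far along the chromosome these changes ran. Within 1 Mb below the window, 7 rows were tested, and 2 were called between genotypes at day 14, both lower, with log2 fold changes of -0.94 to 1.35 and a median of -0.02. Within 1 Mb above it, 1 of 11 was called higher and 3 lower, with values of -1.31 to 0.55 and a median of -0.11. In that comparison 22.0% of all tested genes were called, 11.3% higher and 10.7% lower. The nearest tested rows below start at 10862826 and 10822112 and had values of -0.04 ± 0.11 and 0.58 ± 0.37 (SE), neither called. The nearest above start at 11443774 and 11602649 and had values of -0.67 ± 0.22 (edgeR adjusted p = 0.0292) and 0.55 ± 0.17 (edgeR adjusted p = 0.0205). With age in controls 2 of 7 rows below and 4 of 11 above were called higher, where 21.8% of all tested genes were, and 2 of 11 above were called lower, where 20.7% were. They reached at most 2.03 on the log2 scale, short of the 3.0 of the SPP1-position gene. The row at 2.03 and the 2 called rows below were also called lower between genotypes at day 14. So was the nearest row above, which rose by 1.30 ± 0.22 (edgeR adjusted p = 7.97e-05). The other rows above that were called higher with age were not called between genotypes. The change with age itself differed by genotype for 1 of 7 rows below (-0.89, edgeR adjusted p = 0.00772) and 0 of 11 above. Of all tested genes 2.43% were called lower there.

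**Figure D4:**
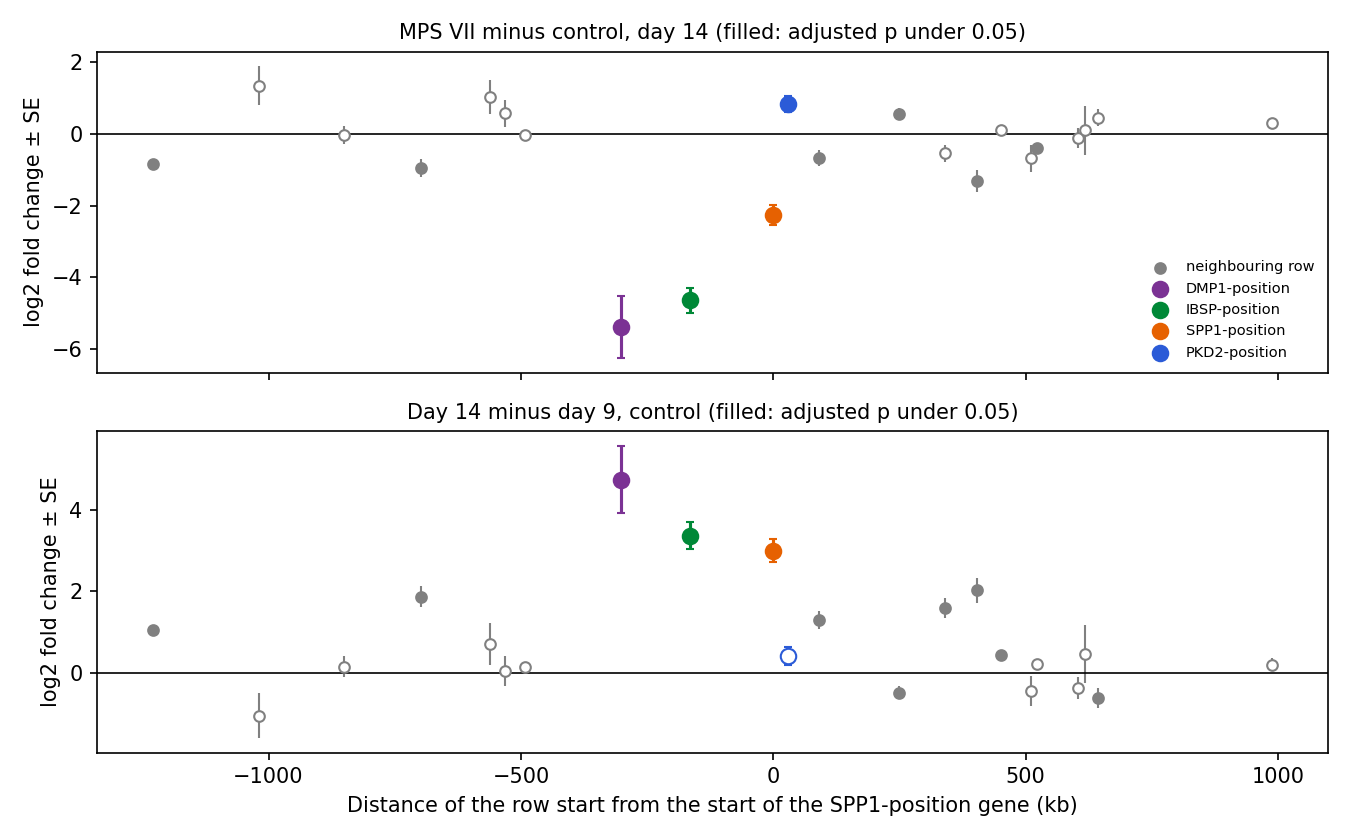
Log2 fold change (vertical axis, bars ± SE) of the members and of 18 tested neighbouring rows against distance in kb from the start of the SPP1-position gene, with the genotype comparison of day 14 on top and the age comparison in controls below; filled points have an edgeR adjusted p under 0.05. Neighbouring rows stay between -1.31 and 1.35 in the top panel, while the SPP1-position gene is at -2.25.

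Genes elsewhere in the genome with the most similar pattern were found by Pearson's r of log2 CPM over the 20 libraries, which reflects the 4 groups and shared depth and carries no test. No r was computed without affected day 9 replicate 3, which was far from its group for the DMP1-position gene and its highest for the PKD2-position gene. Among members r was 0.874 between the DMP1- and IBSP-position genes, 0.856 between the DMP1- and SPP1-position genes and 0.851 between the IBSP- and SPP1-position genes. With the PKD2-position gene it was -0.100, -0.386 and 0.067 for the DMP1-, IBSP- and SPP1-position genes.

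Closest to the IBSP-position gene (r = 0.972) was a row on chromosome 5 from 28853642 to 28864897, with 10 exons. Its means were 819 CPM in control and 243 CPM in affected dogs at day 9, and 3364 CPM and 353 CPM at day 14, with a log2 fold change of -3.25 between genotypes at that age (edgeR adjusted p = 2.17e-08). Rows on chromosome 9 from 9177714 to 9231132 and on chromosome 22 from 8226921 to 8258167 followed, both with r = 0.969. For the DMP1-position gene the closest were on chromosome 4 from 70328943 to 70376127 (r = 0.971), chromosome 19 from 30748435 to 30795313 (r = 0.956) and chromosome 10 from 7659241 to 7726642 (r = 0.954). The last of these had means of 11.2 CPM and 268 CPM in controls of day 9 and day 14, and 9.34 CPM and 5.74 CPM in affected dogs.

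The SPP1-position gene was most like rows on chromosome 32 from 3178399 to 3288755 (r = 0.968), chromosome 20 from 41165523 to 41338910 (r = 0.968) and chromosome 1 from 31260832 to 31267446 (r = 0.956). They matched in shape more than in size: the row on chromosome 20 had means of 72.5, 73.6, 120 and 79.0 CPM in control day 9, affected day 9, control day 14 and affected day 14 libraries. The PKD2-position gene was most like rows on chromosome 10 from 45745978 to 45750954 (r = 0.940), chromosome 23 from 43939703 to 43979393 (r = 0.937) and chromosome 8 from 28671533 to 28795540 (r = 0.937). The first of them had means of 76.4 CPM in control and 243 CPM in affected dogs at day 9, and 131 CPM and 279 CPM at day 14.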

How the data were processed

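RNA was sequenced from stranded mRNA libraries and aligned to CanFam3.1 under Ensembl build 77, as the labels' protocols state. Tools named in the submitters' processing notes, with no role for each, are STAR 2.4.0j, HTSeq, edgeR, bcl2fastq and CASAVA 1.8.2. The strand setting of the counting is not given in the sources used here. The deposited values are raw counts per gene in 20 libraries, per the file headers, and 0 count columns were left unmatched. In each library 65.2% to 76.4% of low counts (under 200) were even. Counting both mates of many pairs would raise that share, while counting both mates of every pair would make all counts even. The reason was not tested, and fits were repeated with counts divided by 2, which corrects for counted mates only roughly. If both mates were counted, counting error is larger than the counts show.

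Counts were fitted with edgeR 4.0.16 in R 4.3.3 (filterByExpr, TMM scaling, robust glmQLFit, glmQLFTest, 1 mean per group, 20 libraries, no covariates). Standard errors are the log2 fold change over the root of F, and 95% intervals use the degrees of freedom of the fit. CPM use TMM-scaled library sizes, and log2 CPM a prior count of 2. Alternatives were median-ratio scaling, library totals alone, no filter, DESeq2 1.42.0, counts divided by 2, counts thinned to 15772761 per library, only the 2 groups compared, and leaving out each library. Libraries were taken as separate animals. Controls were litter-matched, but the labels do not say which animals were litter mates, so litter could not enter the fits.

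The members and lists were chosen with earlier results of these data known. Named rows are the members, the 2 nearest tested rows on each side, and the 3 most alike rows per member. Lists of pathway genes and cell type markers were not tested, since 0 identifiers matched symbols and only the members were set beside RefSeq genes by position.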

Additional observations from a re-analysis of the deposited data

Results flagged for a closer look

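The DMP1-position gene stood at 59.98 CPM in affected day 9 replicate 3, far from the 1.52 to 8.67 CPM of the other libraries of its group. The gap to the nearest library was 0.878 of the range of the group. Of 16 sets of 5 libraries checked in this way (4 genes in 4 groups), 1 held such a library. For independent sets of normally distributed values chance alone gives about 1 in 20. The 4 genes were measured in the same libraries and CPM were not log-transformed, so that rate is only a rough guide. Replicate 3 also stood apart on principal components of all genes.

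The change with age differed between genotypes, by the test of the difference itself, for 3 genes. The affected minus control difference on the log2 scale was -6.77 for the DMP1-position gene, -3.01 for the IBSP-position gene and -2.47 for the SPP1-position gene, with edgeR adjusted p of 0.00402, 0.00105 and 0.00169.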

How the results depend on the processing

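Of 376 log2 fold changes of the 4 members under other settings, 358 kept their direction and side of the threshold. All calls of the DMP1-, IBSP- and SPP1-position genes were among them; the exceptions concern the PKD2-position gene and the DMP1-position gene where it was not called. The PKD2-position gene lost its call at day 14 with library totals alone (0.70) and at day 9 with only the 2 groups compared (0.86). Without affected day 9 replicate 3 the day 9 genotype value of the DMP1-position gene reversed, and leaving out each library in turn gave -0.44 to 1.68. The PKD2-position gene's genotype difference in age change, near 0, ranged from -0.16 to 0.26 when each library was left out in turn. The cause of these changes was not tested.

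Counts of called genes moved by over 1.5 times in 12 of 94 cases, each being 1 comparison under 1 other setting. For age in affected dogs 3297 became 2073 with library totals alone and 1466 with only the 2 groups compared. For genotype at day 9, 1220 became 711 with only the 2 groups compared. For the genotype difference in age change, 474 became 932 with DESeq2, and leaving out each library in turn gave 199 (without control day 14 replicate 4) to 759 (without affected day 9 replicate 3). That count also moved past 1.5 times without control day 9 replicate 2, 3, 4 or 5 (248, 308, 276 and 263), control day 14 replicate 1 (224) and affected day 14 replicate 5 (253). With library totals alone the share of called genes that were higher in that comparison went from 25.3% to 6.38%. Of 32 mean levels, 30 moved by less than their SD; the PKD2-position gene went to 52.0 CPM in control day 9 and 93.7 CPM in control day 14 libraries with totals alone. No paired analysis was possible because replicate numbers come from accession order and litter mates are not labelled. Depth limits the DMP1-position gene most, with 33 counts in its lowest library.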
